A study of Drosophila melanogaster with 62 samples.

Results

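The comparison described here is that of *HisRFP* control embryos at the beginning of nuclear cycle 14 (early NC14) with *HisRFP* embryos about midway through the same cycle (later NC14). It rests on the 8 count columns that the labels assign to these groups, 4 single embryos (A to D) at each time, of 62 libraries in the series. The samples were chosen by their labels, and no measured value entered the choice. The series followed single oocytes and single embryos of *brat* mutants, *brat* hets and *HisRFP* controls through the maternal-to-zygotic transition by RNA-seq, and asked when the zygotic genome is activated if the repressor BRAT is missing. *HisRFP* embryos carried w;His2AVRFP(III), a red fluorescent histone on the third chromosome that marks nuclei, and every embryo was staged from this marker by the density of nuclei. The *brat* mutant embryos used for comparison, 4 at each time, were labelled brat Df/fs1 and carried the same histone. In the paper, Df/fs1 is the genotype of the mothers that laid such embryos, which were crossed to their brothers. The genotype of each embryo itself was not given. All flies were kept on standard food at the same temperature. The labels give neither the sex of an embryo nor what a replicate letter stands for, so p-values measure the spread between single embryos.

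An embryo of *Drosophila* starts with RNAs and proteins laid down by the mother and divides its nuclei rapidly in a common cytoplasm. During NC14 the cycle lengthens, membranes grow down between the nuclei, most zygotic genes are switched on and many maternal RNAs are cleared. Clearance relies on RNA-binding proteins such as Smaug and on zygotic products, and the zygotic genes include the patterning genes of both body axes, regulators of cellularization and of the cell cycle, and the counters of X chromosomes.

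Between 6514331 and 13635751 reads per library were counted on genes at later NC14 and between 21639219 and 41029921 at early NC14, so every early library was deeper than every later library. CPM values are counted reads per 1000000, scaled with TMM factors from the 62 libraries together. For Pearson's r of log2 CPM alone, the factors came from these 8 libraries, and genes had at least 50 reads over them. Across genes, which are not independent replicates, r was 0.944 to 0.971 within early NC14, 0.964 to 0.982 within later NC14 and 0.831 to 0.926 between the groups. The zygotic markers *twi*, *sna* and *eve* were read in all 8 embryos. The 20 follicle cell and eggshell markers, RNAs of the mother's follicle cells rather than of the embryo, summed to 0.228 to 1.26 CPM at early NC14 and to 5.14 to 48.4 CPM at later NC14. Most of this was the chorion gene *Cp15*, which had 32.3, 36.2, 4.67 and 2.57 CPM in later NC14 embryos A to D and at most 2 reads in any early embryo. Its mean was at least 166-fold higher at later NC14 by a floor of 3 reads per library. Both tested members, *Cp15* and *Cp18* (later 1.26 to 3.97 CPM), were called higher, and the part of such RNA in other results was not tested.

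Embryos of the same stage differed among themselves, among others in genes of the egg poles and of sex determination, which are described here after their values were seen. RNA of the germ cell gene *nanos* was at 0.684, 0.73, 68 and 93.4 CPM in early embryos A to D and at 38.7, 6.5, 0.733 and 5.29 CPM in later embryos A to D. The germ cell repressor *pgc* was at 0.41, 1.82, 22.1 and 47.9 CPM early and at 19.7, 9.02, 1.28 and 11.9 CPM later. The hindgut gene *byn* was at 0.274, 1.28, 34.6 and 30.9 CPM early and at 143, 34.5, 5.22 and 26 CPM later. Early C and D thus had far more *nanos*, *pgc* and *byn* RNA than early A and B, and later C had the least of its group. The other pole cell markers had smaller standard errors (SE) of the log2 fold change between stages. These were *osk* (0.29 ± 0.48), *vas* (0.56 ± 0.44) and *gcl* (−1.75 ± 0.48). The split is thus given for the genes picked and not for posterior RNAs as a class. A pair of anterior genes, also picked after their values were seen, ran the other way at early NC14, the maternal determinant *bcd* at 152, 461, 28.1 and 36.2 CPM and the head and pair-rule gene *slp1* at 37.8, 35.8, 2.53 and 8.47 CPM. *Sxl*, the switch of female development, was at 332, 21.3, 930.5 and 26.7 CPM at early NC14 and at 77.1, 1760, 70.9 and 1622 CPM at later NC14. Its activator *sisA*, an X-linked counting gene, was at 223, 35.8, 608 and 39.1 CPM early and at 110.5, 259, 115 and 218 CPM later. Early A and C and later B and D were high for both genes. None of *nanos* (log2 fold change −1.49 ± 1.48 SE, edgeR adjusted p = 0.437), *pgc* (−0.61 ± 1.17, edgeR adjusted p = 0.694), *byn* (1.80 ± 1.30, edgeR adjusted p = 0.282), *Sxl* (1.55 ± 1.35, edgeR adjusted p = 0.373) and *sisA* (−0.24 ± 0.82, edgeR adjusted p = 0.83) passed the test between early and later NC14. What sets these embryos apart was not tested.

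**Figure D1:**
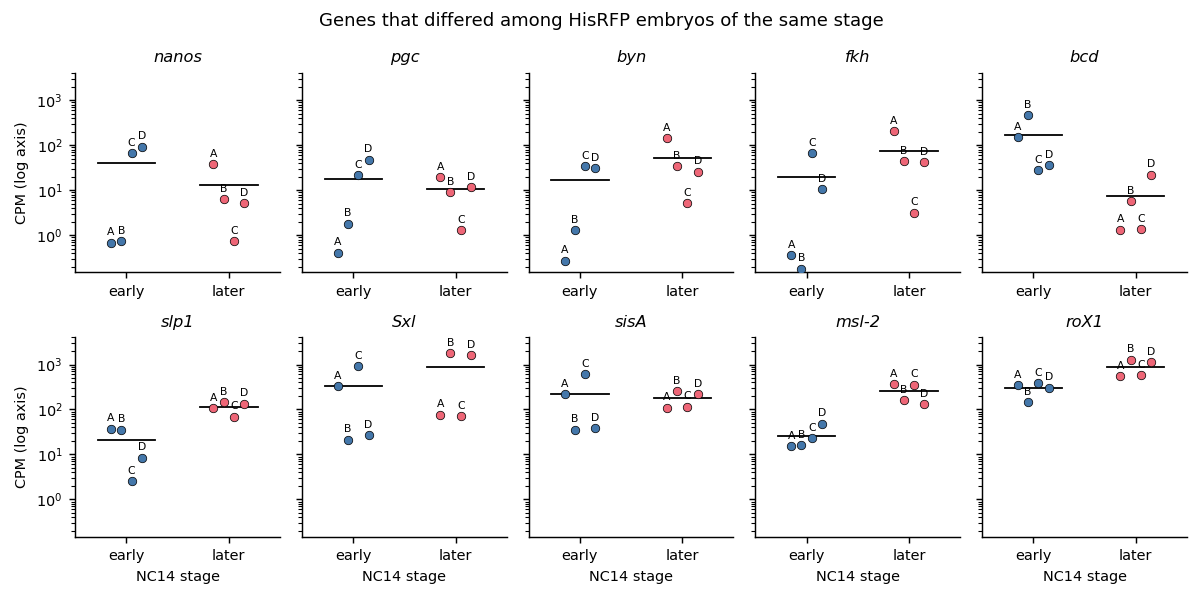
CPM (log axis) of 10 genes in each *HisRFP* embryo at early and later NC14. Dots are single embryos with their replicate letter and lines are group means; the posterior genes *nanos*, *pgc* and *byn* are low in early A and B and in later C, and *Sxl* is high in early A and C and in later B and D.

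From early to later NC14, a large part of the embryonic transcriptome changed, with more and larger rises than falls. At later NC14, 1843 (23.0%) of 8011 tested genes were called higher and 901 (11.2%) were called lower, at an edgeR adjusted p under 0.05 and a change of more than 2-fold, 34.3% in both directions together. Counts of listed genes in the paragraphs below stand beside these shares. At least 4-fold changes were reached by 1331 of the genes that rose and by 225 of those that fell, and at least 16-fold changes by 240 and 14. The 4 embryos of a stage did not overlap with the 4 of the other stage for 1658 of the genes called higher and 828 of those called lower, and over all genes tested 52.0% did not overlap. The genes called higher took 5.20 ± 0.66% (SD, n = 4) of all reads at early NC14 and 21.2 ± 1.8% (n = 4) at later NC14, and those called lower took 13.6 ± 1.8% and 4.55 ± 0.78%. The genes were chosen on the same embryos, so these shares describe the calls. CPM is a share of the RNA of an embryo, so a gene can fall in CPM because others rise, and in whole embryos fewer cells with an RNA and less RNA per cell cannot be told apart. The median log2 fold change over all genes was −0.01, and −0.05 with library totals in place of TMM. With each library thinned to the same depth, 1699 genes were called higher and 826 lower.

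*knrl* (FBgn0001323, chr3L:20597141-20620659, dm6), a nuclear receptor gene next to the gap gene *kni*, had the largest rise of the genes ranked and was at 0, 0.137, 0 and 0.155 CPM in early embryos A to D and at 48.9, 38, 76.5 and 134 CPM in later embryos A to D (log2 fold change 9.80 ± 0.73, edgeR adjusted p = 0.000114). *Blimp-1*, a zinc-finger repressor (FBgn0035625, chr3L:5630983-5652094), went from 0, 0.0912, 0.495 and 0.439 CPM to 105, 31.5, 212 and 145 CPM (8.98 ± 0.87, edgeR adjusted p = 0.000176). *opa*, the Zic-family pair-rule gene (FBgn0003002, chr3R:4852813-4869979), went from 4.28, 2.6, 7.53 and 2.22 CPM to 1035, 839.7, 2314 and 1508 CPM (8.58 ± 0.58, edgeR adjusted p = 0.000107). In all 3 genes every later embryo lay far above every early embryo. The other genes among the 10 largest rises included *dan*, a nuclear factor of head and eye development (7.95), *grnd*, which encodes a receptor for the TNF ligand Eiger (6.45), *CG30089* (6.37), *CG10283* (6.04), the head gap gene *ems* (6.03) and the pair-rule gene *eve* (5.97). Only genes whose stages did not overlap and that averaged at least 20 CPM in the higher stage were ranked here.

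**Figure D2:**
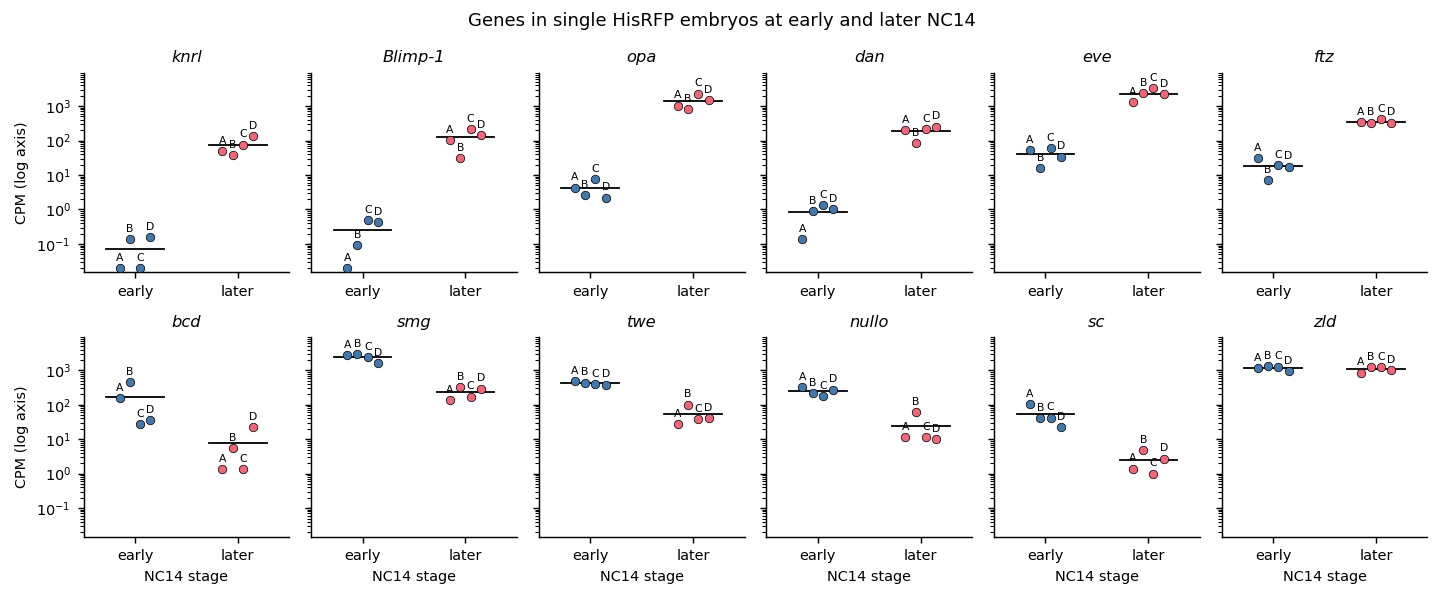
CPM (log axis) of 12 genes in each *HisRFP* embryo, with values of 0 drawn at 0.02 CPM. Dots are embryos A to D and lines are group means; *knrl*, *Blimp-1*, *opa* and *eve* are higher in every later embryo, *bcd*, *smg*, *twe* and *nullo* are lower in every later embryo, and *zld* overlaps.

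All 9 pair-rule genes, which draw the first segmental stripes, were called higher, with log2 fold changes of 2.47 to 8.58 and a median of 4.24. *eve* was at 53.8, 16.1, 59.6 and 34.3 CPM in early embryos A to D and at 1309, 2436, 3264 and 2252 CPM in later embryos A to D (5.97 ± 0.49, edgeR adjusted p = 0.000128). *ftz* was at 30.4, 7.07, 19.4 and 17.5 CPM and then at 346, 332, 413 and 334 CPM (4.40 ± 0.40, edgeR adjusted p = 0.000151). *eve* was read before this step, at 119.7 ± 76 CPM (SD, n = 4) at NC12. *slp2* (4.81), *hry*, the pair-rule repressor hairy (4.24), *odd* (3.81), *prd* (3.59), *slp1* (2.57) and *run* (2.47) completed the set with *opa*.

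Of 6 gap genes, which subdivide the embryo before the pair-rule genes act, 3 rose and none fell. *kni* went from 10.2 to 105 CPM to 499 to 879 CPM (log2 fold change 3.70), *gt* from 15.4 to 74.8 CPM to 131 to 269 CPM (2.31) and *Kr* from 96.5 to 209 CPM to 319.9 to 583 CPM (1.58 ± 0.29, edgeR adjusted p = 0.00224). *hb* was at 263 to 1053 CPM in early embryos and at 369 to 741 CPM in later embryos (−0.09 ± 0.40, edgeR adjusted p = 0.868). The terminal gap genes *tll* (0.319, 10.5, 123 and 55.1 CPM early and 239, 141, 32.2 and 99.6 CPM later) and *hkb* (0.775, 20.8, 81.8 and 23.7 CPM early and 162, 71.8, 52.3 and 156 CPM later) overlapped between the stages and did not pass the test. Early A had the least of both, and without early C *hkb* was called (3.0, edgeR adjusted p = 0.0324).

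Of 10 segment polarity genes tested, which fix the boundaries of segments, 6 rose and none fell. *ci*, the transcription factor of Hedgehog signalling, went from 1.0, 0.137, 3.13 and 17 CPM in early embryos A to D to 183, 125, 273 and 174 CPM in later embryos A to D (5.31 ± 1.08, edgeR adjusted p = 0.00348). The other members that rose were *nkd*, a Wingless antagonist (4.90), the Hedgehog receptor gene *ptc* (3.68), *drm* (2.48), *wg* (2.11) and *gsb* (1.73), the last at no more than 2.12 CPM and not called when any of 5 libraries was left out, for example without early A (1.64, edgeR adjusted p = 0.0687). *en*, *inv* and *hh*, which mark the posterior part of each segment, were at or under 2.15 CPM in every embryo of both stages. Of 8 Hox genes, the selectors of segment identity, *Ubx* (4.46), *Dfd* (3.59), *abd-A* (3.45) and *Scr* (2.17) rose, none beyond 13.7 CPM in any embryo, and *Scr* was not called when any of 6 libraries was left out (early A, B or C or later B, C or D), for example without early A (1.92, edgeR adjusted p = 0.0883). Of 13 head and terminal genes 6 rose, with *ems* (6.03), *croc* (4.29), *oc* (3.91) and *btd* (3.67) ahead.

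Genes of the dorsoventral axis rose with those of the anteroposterior axis. Of 14 mesoderm genes tested 9 rose, among them *NetA*, a guidance cue (5.41), the FGF receptor gene *htl* (3.91), the FGF ligand gene *ths* (3.40) and *stumps*, the FGF receptor adaptor (3.39), while *mdy*, a gene of triglyceride synthesis, fell (−2.32). The mesodermal determinant *sna* was at 126, 32.4, 78.1 and 24.5 CPM in early embryos A to D and at 338, 488, 375 and 589 CPM in later embryos A to D (2.90 ± 0.51, edgeR adjusted p = 0.00173). In the dorsal ectoderm list 8 of 17 rose, with *Doc2* (4.68), *tup* (4.07), the TNF ligand gene *egr* (3.71) and *Doc3* (3.47) ahead, and *scw* (−1.88) and *zen2* (−2.81) fell. Of 12 neurogenic ectoderm genes tested 8 rose and 2 fell, the latter *ac* and *l(1)sc*, and none fell without later C. Among them *rho*, which encodes the protease that releases EGF ligands, went from 5.44 to 15.7 CPM to 80.3 to 109 CPM (3.16 ± 0.31, edgeR adjusted p = 0.000174). Of 19 EGFR, FGF and Wnt genes tested 13 rose and 2 fell, with *nkd* and the EGF ligand gene *spi* (4.43) first. The Notch and Bearded-family list had 9 of 15 tested members higher and none lower, led by *E(spl)m5-HLH* (4.62), the Delta ubiquitin ligase gene *mib1* (3.47) and *Brd* (3.17). Among gastrulation and adhesion genes 8 of 11 rose, led by *Ama* (5.0), the apical polarity gene *sdt* (4.17) and the Toll-family receptor gene *Tollo* (3.51). *fog*, the ligand of apical constriction, which is also maternal (177 ± 34.6 CPM in oocytes, SD, n = 4), fell (−1.69).

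**Figure D3:**
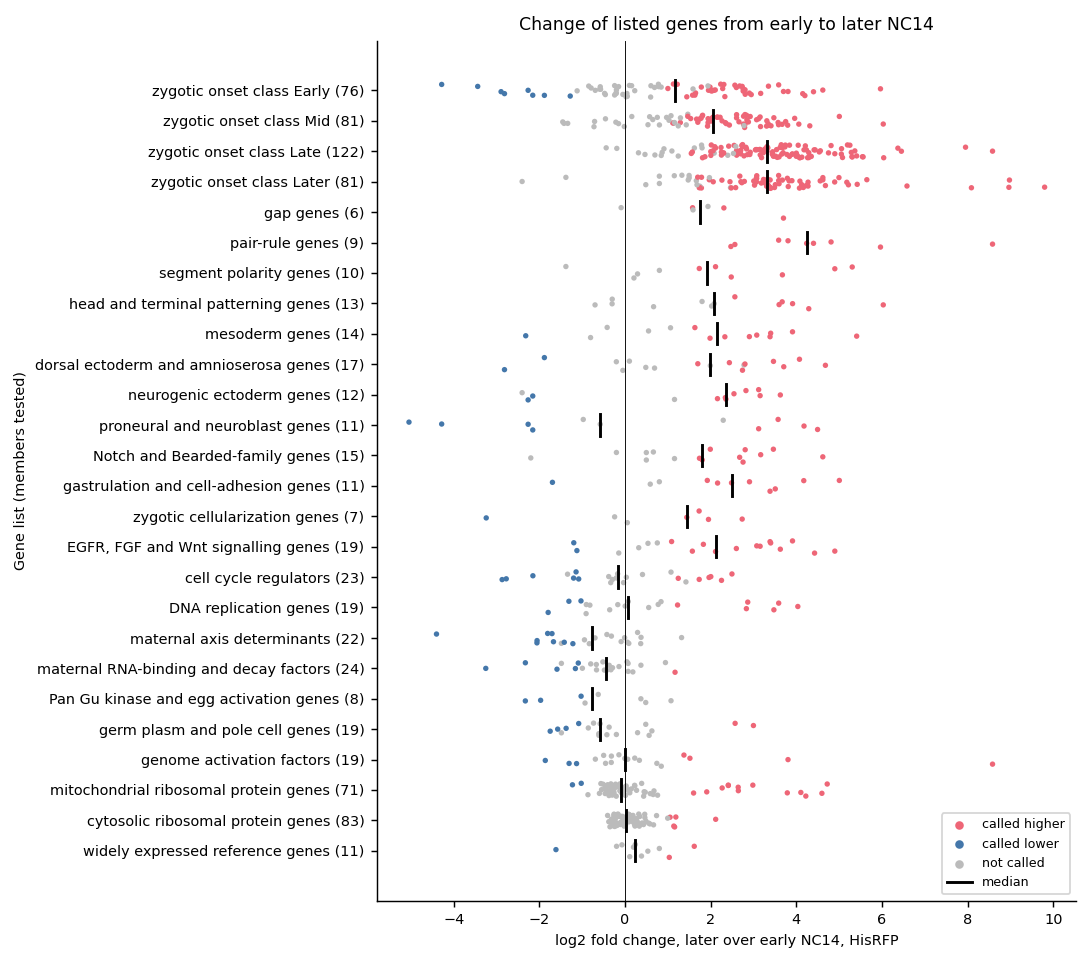
Log2 fold change (later over early NC14, *HisRFP*) of each tested member of the gene lists, with the number tested after each name. Dots are genes and black lines are medians; all 9 pair-rule genes are called higher (median 4.24), and the median of the maternal axis determinants lies at −0.77.

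The proneural and neuroblast list was mixed, with 4 of 11 tested members higher and 4 lower (median log2 fold change −0.58). *sc*, a proneural bHLH gene that is also an X-counting gene, was at 104, 41.6, 42.6 and 22.2 CPM in early embryos A to D and at 1.41, 4.93, 1.01 and 2.72 CPM in later embryos A to D (−4.28 ± 0.65, edgeR adjusted p = 0.000831). Its neighbours *ac* (−2.26) and *l(1)sc* (−2.15) fell too, but *ac* was not called without early A (−1.99, edgeR adjusted p = 0.0603) or 4 other single libraries, and *l(1)sc* not without later C (−2.04, edgeR adjusted p = 0.0521). *wor*, a neuroblast gene called lower, had 0.258 to 2.1 CPM early and at most 1 read in a later library, at least 3.72-fold lower by the floor of 3 reads. The genes that rose act in neuroblasts, and they were *nerfin-1* (4.50), *pros* (4.18), *mira* (3.58) and *SoxN* (3.12). *amos*, a related bHLH gene, was among the 10 largest falls, from 55.4, 87.6, 43.2 and 55.7 CPM to 4.22, 5.05, 2.02 and 1.66 CPM (−4.06 ± 0.41, edgeR adjusted p = 0.000183).

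Of 7 zygotic cellularization genes tested, 4 rose and 1 fell. *nullo*, needed for stable furrows (FBgn0004143, chrX:7049476-7050321, a gene without introns), was at 322, 222, 178 and 274 CPM in early embryos A to D and at 11.5, 61.8, 11.4 and 9.97 CPM in later embryos A to D (−3.24 ± 0.62, edgeR adjusted p = 0.00261). Later B kept the most, and the stages did not overlap. *slam*, whose product drives growth of the membrane, went the other way, from 2300 to 4624 CPM to 8316 to 12106 CPM (1.73 ± 0.22, edgeR adjusted p = 0.00045). *CG13465* (2.74), *CG14427* (1.95) and *halo* (1.44) also rose. *bnk*, which times the closing of the furrow network, was at 607 to 1050 CPM and then 428 to 1118 CPM (−0.24 ± 0.32, edgeR adjusted p = 0.559), and *dunk* did not pass the test either (0.05 ± 0.24, edgeR adjusted p = 0.87). No read was counted on *Sry-alpha* in any of the 8 libraries, so its change was not tested. Whether its RNA was absent or went uncounted was not tested either.

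Of 23 cell-cycle genes tested 6 rose and 6 fell (26.1% each), beside 23.0% and 11.2% of all genes tested. *twe*, a Cdc25 phosphatase gene, was at 475, 442, 391 and 385 CPM in early embryos A to D and at 27.7, 101, 38.9 and 41.2 CPM in later embryos A to D (−2.87 ± 0.38, edgeR adjusted p = 0.000513). *stg*, the other Cdc25 gene, was at 1079 ± 369 CPM (SD, n = 4) in oocytes, 38.4, 85.7, 35.1 and 36.2 CPM in early embryos and 12, 20.8, 17.1 and 92 CPM in later embryos (−0.33 ± 0.62, edgeR adjusted p = 0.685). Later D had the most *stg* of the 8 embryos, and without it the fall was called (−1.39, edgeR adjusted p = 0.0232). *CycD* (−2.77), the mitotic kinase gene *aurA* (−2.15), *Wee1* (−1.20), *grp*, the checkpoint kinase Chk1 gene (−1.14), and *CycB* (−1.08) fell. *trbl*, whose product promotes loss of Cdc25, went from 89.2 to 255 CPM to 634 to 791 CPM (2.25 ± 0.31, edgeR adjusted p = 0.000556). The checkpoint kinase genes *mei-41* (2.50) and *lok* (1.24), the cyclin inhibitor gene *rux* (2.0), the APC activator gene *fzr* (1.96) and *CycE* (1.73) also rose. With libraries thinned to equal depth, *rux* was not called (1.69, edgeR adjusted p = 0.0601). *CycB* fell by less than 2-fold without early B (−0.92, edgeR adjusted p = 0.00706) or later C, and so did *grp* without later A (−0.97, edgeR adjusted p = 0.00783).

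Both maternal and zygotic RNAs were among the falls. *smg*, which encodes the RNA-binding protein that directs much of maternal RNA decay (FBgn0016070, chr3L:8990317-8997989), was at 2808, 2970, 2361 and 1659 CPM in early embryos A to D and at 136, 329.5, 173 and 295 CPM in later embryos A to D (−3.25 ± 0.33, edgeR adjusted p = 0.000184), which did not place it among the 10 largest falls. It had been at 3668 ± 197 CPM (SD, n = 4) at NC12 and 3709 ± 961 CPM (n = 3) at NC13. *bcd* (FBgn0000166, chr3R:6755842-6759466) was at 152, 461, 28.1 and 36.2 CPM and then at 1.33, 5.65, 1.37 and 22.2 CPM (−4.40 ± 1.19, edgeR adjusted p = 0.0139). The 10 largest falls, which hold *bcd*, *sc* and *amos*, included *CG32365* (−4.15), *CG42674* (−4.11), the formin gene *Fhos* (−3.83), *CG12567* (−3.66), *tamo* (−3.64) and *csw*, the SHP2-type phosphatase of receptor tyrosine kinase signalling (−3.61). *GluRIIA*, a glutamate receptor subunit gene with almost no RNA in oocytes (0.0116 CPM), had the largest fall of the genes ranked. Its values of 119, 3.79, 129 and 4.34 CPM in early embryos A to D were high in A and C, and it was at 3.04, 3.13, 1.01 and 0.755 CPM later (−4.86 ± 1.26, edgeR adjusted p = 0.0113). With the replicate letter as a block, *GluRIIA* was not called (−3.89, edgeR adjusted p = 0.0512).

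The counts of this paragraph stand beside 11.2% of all genes tested that fell and 23.0% that rose. Of 22 maternal axis determinants tested 8 (36.4%) fell and none rose (median −0.77), with *bcd*, the terminal receptor gene *tor* (−2.06), *grk*, a ligand of the oocyte (−2.05), and the protease gene *gd* (−1.81) ahead. Among 24 maternal RNA-binding and decay factors 5 (20.8%) fell, *smg*, *osp* (−2.33), *pum* (−1.59), the deadenylase scaffold gene *Not1* (−1.16) and *Edc3* (−1.09). *osp* was not called without early B (−1.64, edgeR adjusted p = 0.0666), later A, later B or later C, and *Edc3* not without later D (−0.97, edgeR adjusted p = 0.00687). A single member rose. This was *brat* itself, from 102, 94.2, 108 and 100.4 CPM to 235, 138, 246 and 203 CPM (1.17 ± 0.18, edgeR adjusted p = 0.000939), after 757 ± 195 CPM (SD, n = 4) in oocytes. Of 8 genes of the Pan Gu kinase and of egg activation, *sra* (−2.33), *gus* (−1.97) and the cytoplasmic poly(A) polymerase gene *wisp* (−1.03) fell and none rose, but *wisp* was not called without early B (−0.70, edgeR adjusted p = 0.0166), later A or later D. The Pan Gu subunit genes *plu* (−0.93 ± 0.15, edgeR adjusted p = 0.00109) and *gnu* (−0.62 ± 0.93, edgeR adjusted p = 0.61) did not reach both thresholds. Of 19 germ plasm genes tested 4 (21.1%) fell, led by *gcl* (−1.75), and 2 (10.5%) rose, *tud* (3.0) and the chaperone gene *Hsp83* (2.57).

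Many of these RNAs reached their highest level shortly before they fell. They were chosen as lower at later than at early NC14 in these embryos, so the choice favours a high level at early NC14. The stage of the highest level was not counted over all genes tested. Among the 901 genes called lower, 784 (87.0%) had at least 10 CPM in oocytes, and 315 were highest at NC13, 243 at early NC14 and 84 in oocytes. *HisRFP* libraries held 20509607 to 41029921 reads at NC13 and early NC14, 5512152 to 19725875 in oocytes and at most 13635751 at later NC14. Whether depth, or the length of poly(A) tails, bears on the stage of the highest level was not tested. A further 36 genes called lower had under 1 CPM in oocytes, among them *nullo*, *scw*, *sc* and *amos*. *scw*, a BMP ligand gene, was at 0 CPM in oocytes, 247 ± 109 CPM (SD, n = 3) at NC13, 230.2 to 319 CPM in early embryos and 38.4 to 122 CPM in later embryos (−1.88 ± 0.34, edgeR adjusted p = 0.00183). These 36 genes had a median exonic length of 1298 bases and 55.6% of them had no intron, against 2140 bases and 11.3% of all genes tested.

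Most of the genes that rose also had RNA in oocytes, though this share was smaller than over all genes tested. Of the 1843 genes called higher, 1072 (58.2%) had at least 10 CPM in oocytes and 584 (31.7%) had under 1 CPM, against 72.1% and 18.6% of all genes tested. Of the 1072, 937 were higher in oocytes than at later NC14 and 1016 had their lowest stage mean at NC13 or early NC14. Libraries of NC13 and early NC14 were also deeper than those of oocytes and later NC14, and whether depth bears on this was not tested. The median of the 1072 genes stood at 4.59% of its oocyte level at early NC14 and at 24.5% at later NC14. Lengths of poly(A) tails were not measured, and whether they bear on these levels was not tested. The genes were chosen as higher at later than at early NC14 in these embryos, so these levels describe the calls. *da*, which encodes the bHLH partner of proneural and X-counting proteins (FBgn0267821, chr2L:10388105-10393228), was at 634 ± 324 CPM (SD, n = 4) in oocytes and at 43.1 ± 30.6 CPM (n = 3) at NC13. It was then at 4.88, 16.5, 13.5 and 21.6 CPM in early embryos A to D and at 284, 214, 379 and 372 CPM in later embryos A to D (4.62 ± 0.42, edgeR adjusted p = 0.000151). Of 19 replication genes 6 rose and 3 fell (31.6% and 15.8%, beside 23.0% and 11.2% of all genes tested), and *Slbp*, the histone mRNA binding protein gene (4.04), the ribonucleotide reductase gene *RnrS* (3.59), *Orc2* (3.48) and *PolA1* (2.87) were the largest rises. *cid*, the centromeric histone gene, was at 61.9 ± 8.39 CPM (SD, n = 4) in oocytes, 0 to 0.284 CPM in early embryos and 4.93 to 9.62 CPM in later embryos (5.84 ± 0.87, edgeR adjusted p = 0.000786). The later level of *Cp15* was 0.155% of its oocyte level (0.297% in the highest library), and the part of follicle cell RNA in the rises was not tested.

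**Figure D4:**
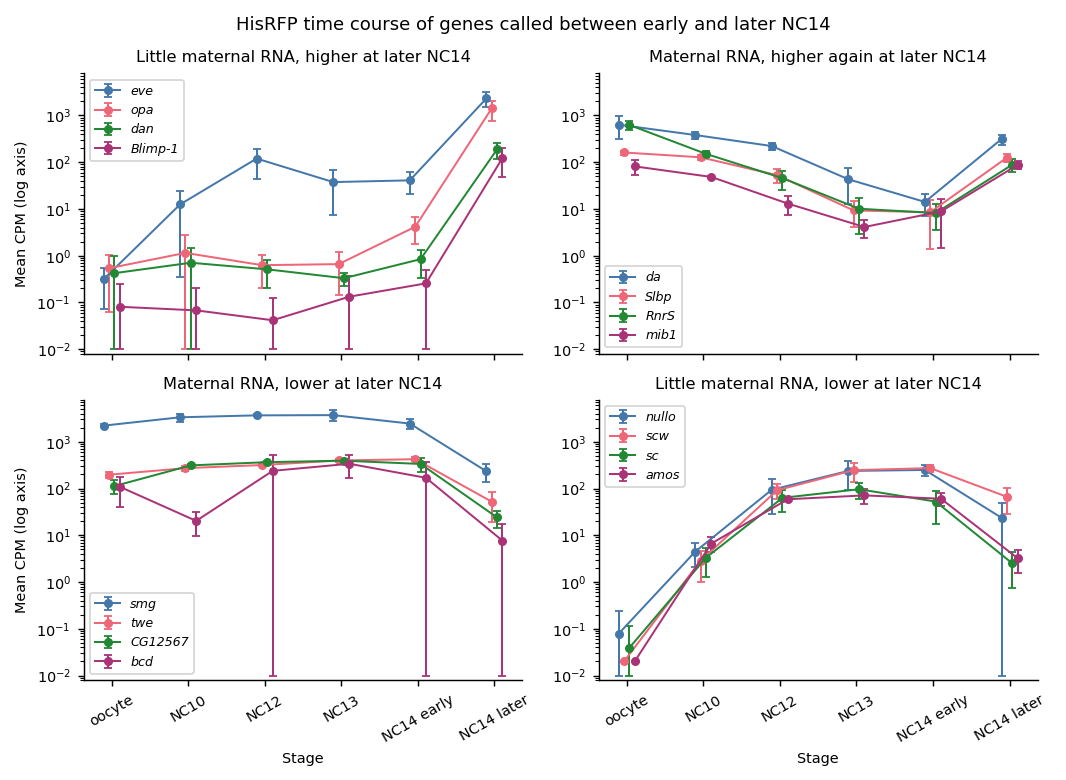
Mean CPM (log axis) of 16 genes in *HisRFP* oocytes and embryos; bars are SD (n = 4, n = 3 at NC13), cut at 0.01 where they pass it, and means of 0 are drawn at 0.02. *da*, *Slbp*, *RnrS* and *mib1* fall from oocytes and are higher again at later NC14, *smg* and *twe* fall between early and later NC14, and *nullo*, *scw*, *sc* and *amos* are transient.

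Housekeeping lists are given beside the 23.0% of all genes tested that rose, the 11.2% that fell and their median of −0.01. Of 71 mitochondrial ribosomal protein genes tested 13 (18.3%) rose and 2 fell (median −0.10), and *mRpL46* (4.72), *mRpL47* (4.60), *mRpS2* (4.22) and *mRpL2* (4.11) had at most 1.94 CPM in any early embryo and 3.37 to 7.33, 5.41 to 13.3, 4.57 to 10.4 and 6.62 to 17.5 CPM in later embryos. Of 34 proteasome genes tested 6 (17.6%) rose and none fell, led by *Rpn11* (3.31), *Rpn1* (2.67), *Rpn7* (2.52) and *Rpn8* (1.98), subunits of the regulatory particle. Of 83 cytosolic ribosomal protein genes tested 5 rose and none fell (median 0.01). Of 11 widely expressed reference genes *Tbp* (1.62) and *alphaTub84B* (1.03) rose and *Rap2l* fell (−1.61), while *Act5C* was at 4922 to 6329 CPM and then 5114 to 6563 CPM (0.20 ± 0.13, edgeR adjusted p = 0.248). *alphaTub84B* rose by less than 2-fold without early B (0.96, edgeR adjusted p = 0.00171), early D or later C.

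Classes of zygotic genes by the onset of their transcription, from a published list given with the study, rose to different extents. In the early class 38 of 76 genes rose and 8 fell (median log2 fold change 1.18), in the mid class 56 of 81 rose (2.05), in the late class 105 of 122 (3.32) and in the class named later 66 of 81 tested (3.31), and none fell in the last 3 classes. The falls of the early class were led by *sc* (−4.28), *CG13716* (−3.44), *CG18269* (−2.89) and *zen2* (−2.81), and without later C 5 genes of it fell. In the mid class 3 genes fell without early B and 2 without early D. The early class took 0.968 ± 0.146% (SD, n = 4) of reads at early NC14 and 2.33 ± 0.14% (n = 4) at later NC14, and the late class took 0.173 ± 0.058% and 1.19 ± 0.20%. Early embryo B had the smallest share of the early, mid and late classes in its group, for example 0.174% for the mid class against 0.322%, 0.551% and 0.392% in early A, C and D.

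Of 19 regulators of genome activation 4 rose and 3 fell (21.1% and 15.8%), beside 23.0% and 11.2% of all genes tested. *zld*, the pioneer factor gene, was at 1129, 1320, 1279 and 948 CPM in early embryos A to D and at 859.8, 1255, 1266 and 1032 CPM in later embryos A to D (0.06 ± 0.17, edgeR adjusted p = 0.783). The stages overlapped. *Clamp*, the gene of a GA-repeat binding factor, fell (−1.86), as did *Stat92E* (−1.31) and *gfzf* (−1.13), and *opa*, *odd* and the insulator genes *insv* (1.52) and *Elba2* (1.38) rose. *BigH1*, the linker histone gene of early embryos, went from 56.8 to 131 CPM to 28.4 to 45.8 CPM (−1.22 ± 0.28, edgeR adjusted p = 0.00607).

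Of 6 dosage compensation genes 3 rose and 1 fell. *msl-2*, the limiting protein of the male complex, was at 15.6, 16, 22.9 and 48.7 CPM in early embryos A to D and at 371, 163, 357 and 133 CPM in later embryos A to D (3.48 ± 0.48, edgeR adjusted p = 0.000592). Every later embryo was above every early embryo, and later A and C, which had less *Sxl*, had more *msl-2* than later B and D, while early A and C, which had more *Sxl*, did not stand apart from early B and D. The noncoding RNA gene *roX1* went from 355, 149, 389.6 and 306 CPM to 562, 1282, 572 and 1148 CPM (1.72 ± 0.37, edgeR adjusted p = 0.00455), and there later B and D were highest. With all *HisRFP* libraries in the fit, *roX1* was not called (1.68, edgeR adjusted p = 0.062). *msl-3* rose (1.25) and *msl-1* fell (−1.53). Reads on the X chromosome made up 17.0% to 17.3% of all reads in early embryos and 16.2%, 18.3%, 17.7% and 18.6% in later embryos A to D.

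The median exonic length was 2303 bases for genes called higher, 2890.5 bases for genes called lower and 2140 bases for all genes tested, and 12.0%, 7.83% and 11.3% of them had no intron. The median number of introns was 3 in each of these groups. Genes on the X made up 15.4% of the rises and 20.3% of the falls, against 17.4% of genes tested. Longer genes collect more reads, and these are descriptions without a test. Among the rises with under 1 CPM in oocytes 17.7% had no intron, and among those with at least 10 CPM 9.10%.

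In *brat* mutant embryos the same step called 2104 genes higher and 1499 lower of 7904 tested. The difference between both changes was tested directly as an interaction over 16 libraries. Of 8765 genes tested, the change was called higher in *HisRFP* for 414 (4.72%) and lower for 363 (4.14%), with a median difference of −0.10 on the log2 scale. The 5 largest differences toward *HisRFP* were of *Grip71*, a gamma-tubulin complex gene (5.74 ± 0.54, edgeR adjusted p = 3.01e-05), *CG9436* (5.18 ± 0.49, edgeR adjusted p = 3.01e-05), the Wnt receptor gene *drl* (5.02 ± 0.65, edgeR adjusted p = 0.00048), the DNA repair gene *Irbp* (4.80 ± 0.51, edgeR adjusted p = 0.00011) and *Polr3A*, a gene of RNA polymerase III (4.75 ± 0.79, edgeR adjusted p = 0.00196). *Grip71* was at 0.684, 2.37, 0.879 and 3.31 CPM in early *HisRFP* embryos A to D and at 9.25, 6.14, 6.23 and 11.9 CPM in later ones, while *brat* mutants were at 164 ± 13.2 CPM (SD, n = 4) and then 12.8 ± 2.42 CPM (n = 4). The mutants thus had far more at early NC14 and closer amounts at later NC14. The same held for the early level of the other 4 genes, of which *drl* was at 0.319 to 2.58 CPM in early *HisRFP* embryos and at 219 ± 15.8 CPM (SD, n = 4) in early *brat* mutants. *drl* is hardly read in *HisRFP* oocytes (0.177 CPM), while *Grip71* is abundant there (173 CPM). *stg* (difference 2.95 ± 0.72, edgeR adjusted p = 0.0154) and *brat* (1.15 ± 0.21, edgeR adjusted p = 0.00364) also differed in this direction, with early *brat* mutants at 1553 ± 366 CPM and 989.9 ± 28.7 CPM (SD, n = 4).

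The 5 largest differences in the other direction were of *Ih*, a cation channel gene (−7.79 ± 1.28, edgeR adjusted p = 0.00176), *GluRIIA* (−6.99 ± 1.40, edgeR adjusted p = 0.00587), the forkhead gene *fkh* (−6.56 ± 1.99, edgeR adjusted p = 0.042), *beat-IIIc* (−6.06 ± 1.63, edgeR adjusted p = 0.0256) and *Or71a* (−5.95 ± 1.35, edgeR adjusted p = 0.0114). *fkh* was at 0.365, 0.182, 67 and 10.6 CPM in early *HisRFP* embryos A to D, with by far the most in C, and at 0.145 to 0.441 CPM in early *brat* mutants. It was not called without early C (−4.20, edgeR adjusted p = 0.125) or without most other single libraries, and neither was *beat-IIIc* without early C (−3.60, edgeR adjusted p = 0.0911). *Ih* was at 18.7, 52.7, 15.3 and 4.0 CPM in early *HisRFP* embryos and at 0 to 0.40 CPM in early *brat* mutants. Genes of the lists with such a difference, chosen after their values were seen, include *ci* (−5.51 ± 1.34, edgeR adjusted p = 0.0154), *nkd* (−4.82 ± 1.41, edgeR adjusted p = 0.0356) and *Kr* (−2.02 ± 0.58, edgeR adjusted p = 0.0332). *nkd* was not called without early C (−2.90, edgeR adjusted p = 0.0956) and *Kr* not without later D (−1.89, edgeR adjusted p = 0.0676). *eve* differed in the opposite direction (2.53 ± 0.73, edgeR adjusted p = 0.0337), and not without *brat* mutant early C (1.84, edgeR adjusted p = 0.079). *nkd*, *Kr* and *eve* were each lost without several other single libraries as well. By onset class, 7 of 76 early, 16 of 81 mid, 28 of 122 late and 11 of 87 later genes tested were called lower in *HisRFP*, and 2 of the early, 2 of the later and none of the mid and late classes were called higher, beside the 4.14% and 4.72% over all genes. The count of genes with a change lower in *HisRFP* was 194 without *HisRFP* later C, 238 without *brat* mutant early A and 226 without *brat* mutant later D.

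**Figure D5:**
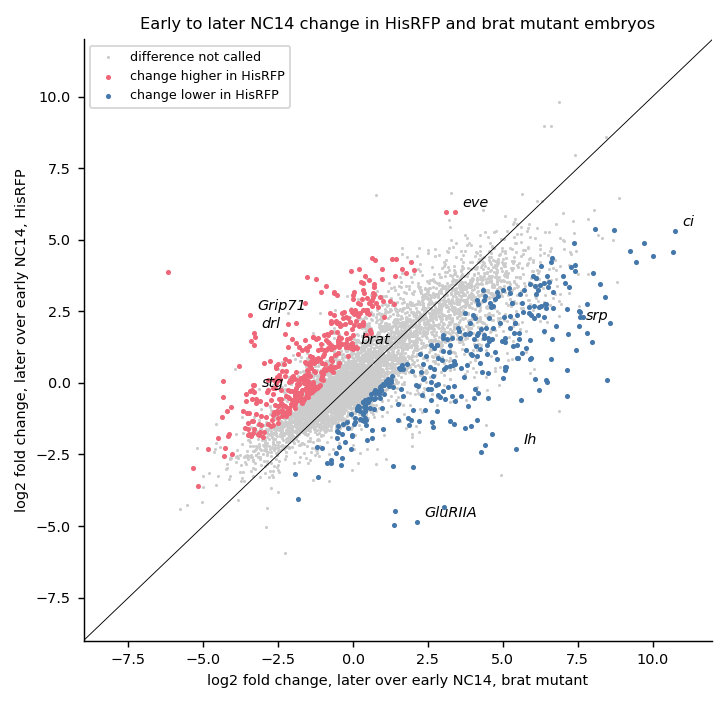
Log2 fold change from early to later NC14 in *HisRFP* embryos (vertical axis) against *brat* mutant embryos (horizontal axis), a dot per gene. Coloured dots are the genes whose change was called different, and the line marks equal change; *Grip71* (difference 5.74) lies above the line and *Ih* (−7.79) below it.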

How the data were processed

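RNA of single oocytes and embryos was sequenced by the authors with a TruSeq RNA v2 kit as 75-bp reads. They aligned reads to dm6 with HISAT2 2.1.0, kept unique alignments of mapping quality 30 or more with SAMtools, and counted them without strand on genes with featureCounts 1.5.3. Strand was thus not used to tell antisense or overlapping genes apart. The deposited values are raw read counts per gene, and every other value was computed from these counts, of which 99.4% of 17510 genes matched the Ensembl annotation of the same assembly used here for positions.

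Genes with at least 50 reads over the libraries compared were tested with edgeR 4.0.16 (R 4.3.3; TMM factors, quasi-likelihood F-test, Benjamini-Hochberg adjustment) and called at an adjusted p under 0.05 and a change above 2-fold. The difference from *brat* mutants was an interaction term over 16 libraries, signed as *HisRFP* change minus *brat* mutant change. Tested on simulated data for the main comparison (7898 genes), the fit called 84% and 96% of genes changed by 2 and 3 log2 units, and 8 unchanged genes. In the interaction (8678 genes) it called 63% and 81%, and 5 unchanged genes. In each simulation 200 genes were changed, as many up as down, and drawn from genes with at least 200 reads. Genes of fewer reads, and changes as many and as uneven as those called here, were thus not examined.

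Genes named are the 10 largest rises and falls among called genes without overlap and with at least 20 CPM in the higher stage, the 4 largest called changes per direction of each list, members that account for lists of up to 12 genes, 16 regulators and standards, and the 5 largest interaction differences per direction. The samples were chosen by their labels, and the lists with earlier results of these data known. Alternatives were RLE factors, library totals, edgeR's expression filter, no filter, DESeq2 1.42.0, the replicate letter as a block, thinning to equal depth, all *HisRFP* libraries in the fit, and each library left out in turn. No coding of embryo sex or batch was given in the sources used here. Some genes that this rule selects are not reported here.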

Additional observations from a re-analysis of the deposited data

Results flagged for a closer look

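In groups of 4 embryos, a library was singled out where its gap to the nearest other library was a larger share of the range of the group than Dixon's 95% critical value. Chance flags about 1 in 20 groups, and 344 groups were looked at, of which 31 were singled out. In early embryo A these were *btd* (20.7 CPM) and *l(1)sc* (34.3 CPM). In early embryo B this was *stg* (85.7 CPM). In early embryo C these were *Doc3* (10.0 CPM), *Or71a* (2.97 CPM), *beat-IIIc* (6.65 CPM) and *fkh* (67.0 CPM). In early embryo D, the deepest library, these were *CG9436* (2.82 CPM), *Cp18* (0.129 CPM), *Irbp* (2.17 CPM), *Orc2* (2.48 CPM), *PolA1* (31.2 CPM), *Polr3A* (2.51 CPM), *Scr* (0.982 CPM), *grnd* (1.78 CPM), *mRpL2* (1.94 CPM), *mRpS2* (1.37 CPM) and *mib1* (19.9 CPM). In later embryo A this was *nanos* (38.7 CPM). In later embryo B these were *Elba2* (1891 CPM), *ac* (4.57 CPM), *bnk* (1118 CPM), *nullo* (61.8 CPM), *UQCR-C2* (30.3 CPM), *trbl* (791 CPM) and *wor* (0.12 CPM). In later embryo C this was *ftz* (413 CPM). In later embryo D these were *NetA* (166 CPM), *gnu* (15.7 CPM), *osp* (13.0 CPM) and *stg* (92.0 CPM).

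The change from early to later NC14 differed between *HisRFP* and *brat* mutant embryos, by the interaction term and at an edgeR adjusted p under 0.05, for 31 of the genes named. The difference, on the log2 scale and as *HisRFP* minus *brat* mutant, was positive for *Cp15* (12.30), *Grip71* (5.74), *CG9436* (5.18), *drl* (5.02), *Irbp* (4.80), *Polr3A* (4.75), *msl-3* (3.04), *stg* (2.95), *eve* (2.53), *rux* (2.40), *pum* (2.0), *lok* (1.89), *Hsc70-5* (1.70), *csw* (1.57), *wisp* (1.47), *Elba2* (1.42), *betaTub56D* (1.25), *Dark* (1.22) and *brat* (1.15). It was negative for *Ih* (−7.79), *GluRIIA* (−6.99), *fkh* (−6.56), *beat-IIIc* (−6.06), *Or71a* (−5.95), *ci* (−5.51), *nkd* (−4.82), *E(spl)m5-HLH* (−4.65), *ptc* (−2.45), *gsb* (−2.45), *amos* (−2.23) and *Kr* (−2.02). The calls of *ptc*, *gsb*, *csw* and *betaTub56D* were lost when any of 10, 12, 11 and 10 of the 16 libraries was left out in turn, those of *Kr*, *fkh* and *nkd* when any of 11 was, and those of *eve*, *beat-IIIc* and *wisp* when any of 8, 5 and 1 was. The difference of *rux* was not called with libraries thinned to equal depth (1.77, edgeR adjusted p = 0.165). For *Cp15*, read at most 2 times in any early *HisRFP* library, the fitted difference depends on the prior count and is no bound.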

How the results depend on the processing

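Counts of genes called kept within 1.5 times of 1843 higher and 901 lower under each alternative run for the main comparison, from 1699 higher and 826 lower with thinned libraries to 1963 and 914 with DESeq2 and 1871 and 986 with all *HisRFP* libraries in the fit. Leaving out single libraries gave 1536 to 1943 higher and 776 to 986 lower. For the difference from *brat* mutants it gave 298 to 563 genes higher and 194 to 543 lower in *HisRFP*, the lowest without *HisRFP* later C, and DESeq2 called 605 and 537. Same-lettered early and later libraries did not deviate together (r of −0.257, −0.107, 0.0947 and 0.103 for A to D), so the letters were not taken as a pairing. With the replicate block, 1760 genes were called higher and 835 lower, and 372 and 259 in the interaction. Only genes that had not passed the test reversed: with the replicate block the log2 fold change was −0.0270 for *dunk*, 0.0485 for *hb*, 0.379 for *pgc* and 0.669 for *sisA*, and without a filter it was −0.00548 for *dunk*. Over single libraries left out, the log2 fold change ranged over −0.415 to 2.12 for *Or71a*, −0.266 to 0.191 for *dunk*, −8.34e-05 to 0.683 for *en*, −0.339 to 0.365 for *hb*, −0.0789 to 0.447 for *inv*, −1.11 to 0.500 for *pgc*, −0.601 to 0.969 for *sisA*, −1.39 to 0.0854 for *stg* and −0.0331 to 0.176 for *zld*. Of the counts of list members called, 50 moved by over 1.5 times and 1198 did not; 1 maternal axis determinant rose without later A, 2 decay factors rose without early D, and 4 X-counting genes rose without early C against 2. Among genes of at least 10 CPM in the higher stage, the median exonic length was 2986 bases for rises, 3037.5 for falls and 2343 for all tested, the median number of introns of falls was 4, and 9.13%, 6.41% and 9.28% had no intron; fewer genes were counted. The cause of these shifts was not tested. The promoter motif alternative was not run, since promoter sequence was not used here. Later libraries hold fewer reads, which limits the precision of genes of few CPM.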

Other observations

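The counts of the lists below stand beside 23.0% of all genes tested that rose and 11.2% that fell. Of 10 apoptosis genes tested 3 rose and 1 fell, with the death activators *hid* (log2 fold change 2.32) and *rpr* (2.27) and the apoptosome gene *Dark* (1.82) higher and *p53* (−1.46) lower. *rpr* was not called without early A (1.94, edgeR adjusted p = 0.0626) or 5 other single libraries. Of 7 JAK/STAT genes tested the inhibitor gene *Socs36E* (4.75) rose, and the kinase gene *hop* (−1.38) and *Stat92E* (−1.31) fell, and 3 of the list rose without early C and 2 with DESeq2. Of 10 heat shock protein genes tested 3 rose, *Hsp83* (2.57), *Hsf* (1.68) and *Hsc70-5* (1.53), and of 7 tubulin genes tested *betaTub56D* (1.84) and *alphaTub84B* (1.03) rose. Of 63 nuclear genes of oxidative phosphorylation tested 2 rose, *UQCR-C2* (3.55) and *COX7A* (1.09), and none fell. *COX7A* was not called without early A (0.91, edgeR adjusted p = 0.036), early C or later A. Of 220 long noncoding RNA genes tested 43 rose and 16 fell, and the count of falls was 7, 7, 4 and 6 without early A, early B, later A or later C.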
